A study of Rattus norvegicus with 4 samples.

Results

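The transcripts of AMP-activated protein kinase (AMPK) subunits, of the enzymes that make and break down malonyl-CoA, and of the carnitine palmitoyltransferases were followed in rat hypothalamus after triiodothyronine (T3, the active thyroid hormone). The 10 genes form a functional group, chosen by name with earlier results of these data known, out of 13440 genes that the probes of the array named. They were found through the RefSeq accession that each probe carries. They were represented by 11 probes: Prkag2 had 2 probes and the other genes had 1 each.

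The arrays compared T3-injected with saline-injected male Sprague Dawley rats, 4 of each, aged 7 weeks when treatment began and 10 weeks when tissue was taken. All 8 rats had been made hypothyroid with 0.025% methimazole (MMI, an inhibitor of thyroid hormone synthesis) in their water over 22 days, so the saline rats were hypothyroid and no untreated rat was among these samples. T3 was given at 25 µg per 100 g on day 21, and blocks of hypothalamus spanning bregma -2.12 to -4.52 mm were taken 24 hours later. Each of the 4 two-colour Agilent arrays carried RNA of 1 T3 rat and 1 saline rat, with T3 in the red dye Cy5 on arrays 1 and 3 and in the green dye Cy3 on arrays 2 and 4. In such blocks, fewer cells of a type and less RNA per cell cannot be told apart.

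AMPK is a heterotrimer of a catalytic alpha subunit, a scaffolding beta subunit and a nucleotide-binding gamma subunit, and it is switched on when cellular energy falls. It phosphorylates and inhibits acetyl-CoA carboxylase, the enzyme that makes malonyl-CoA. Malonyl-CoA in turn blocks carnitine palmitoyltransferase 1, the gate for fatty acid entry into mitochondria, and malonyl-CoA decarboxylase removes it. In the hypothalamus this axis is known for its part in feeding and energy expenditure, and T3 acting there is known in rats to lower AMPK activity. The arrays measured transcripts, not phosphorylation or enzyme activity.

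Promoter windows from RefSeq (build GRCr8, 250 bases before to 50 after a start site) matched 9 of the 10 genes, in 10 windows, and Cpt1c had no entry. The hexamer AGGTCA, the core motif that thyroid hormone receptors bind, was searched on both strands, alone and as a direct repeat of itself spaced by any 4 bases. It was found alone in 16.2% of all 33469 windows of this length, and the direct repeat in 0.00598% of them. Of the 10 windows, 1 held the hexamer and 0 held the repeat. Shown are that window, of Acacb, with the hexamer or its reverse complement in capitals, and for comparison the window of Cpt1a, which is known to respond to T3 in rat liver. The Acacb window lies at chr12:48138165-48138464 on the minus strand and the Cpt1a window at chr1:209995910-209996209 on the plus strand.
Acacb: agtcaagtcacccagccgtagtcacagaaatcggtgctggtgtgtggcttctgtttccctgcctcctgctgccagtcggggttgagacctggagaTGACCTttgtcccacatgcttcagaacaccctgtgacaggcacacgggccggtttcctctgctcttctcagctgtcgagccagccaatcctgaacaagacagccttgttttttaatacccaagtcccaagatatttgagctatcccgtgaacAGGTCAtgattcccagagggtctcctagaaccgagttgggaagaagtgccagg
Cpt1a: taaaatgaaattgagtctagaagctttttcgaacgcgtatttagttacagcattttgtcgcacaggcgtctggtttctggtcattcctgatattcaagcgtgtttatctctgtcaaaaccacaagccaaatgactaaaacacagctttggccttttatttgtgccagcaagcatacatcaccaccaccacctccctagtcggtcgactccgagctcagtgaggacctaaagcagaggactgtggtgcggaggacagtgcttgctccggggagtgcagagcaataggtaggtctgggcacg
The capitals in Acacb begin 155 and 3 bases before the start site. A match in these letters does not show that a receptor binds there, and no match says nothing of sites outside the window.

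Array 4 stood apart in 1 corner, and that corner held members. Between spot rows 442 and 532 and columns 1 and 66 of its grid, 3434 of 43379 spots (7.92%) lay in an area more than 1 log2 unit dimmer in both dyes than on the other arrays. Arrays 1, 2 and 3 had 0 spots in such an area. By this rule the corner contained the only probe of Cpt1c, the only probe of Prkag1, the dimmer probe of Prkag2 and 2 of the 10 spots of Prkaa2. Another Prkaa2 spot, at row 499 and column 62, was dim on array 4 but not counted by the rule. It read 132 units in Cy5 and 73 in Cy3, against 238 to 245.5 and 110 to 144 on the other arrays. Values of Cpt1c, Prkag1 and Prkaa2 are given with and without the spots counted by the rule. The cause of the dim corner was not tested.

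**Figure D1:**
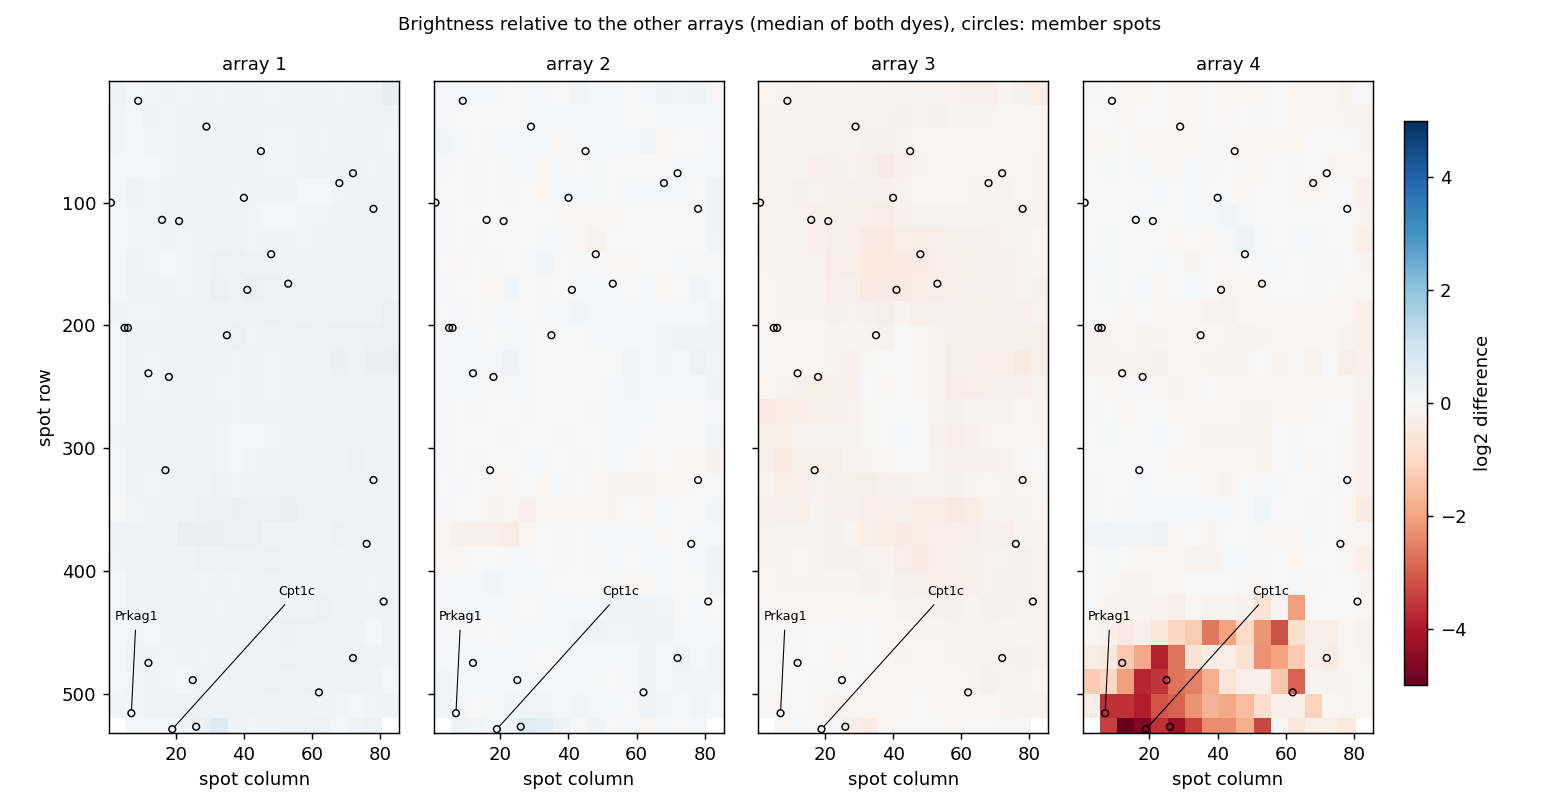
Brightness of each array relative to the median of the other 3, as the median log2 difference in blocks of 20 spot rows by 5 columns over both dyes, with spot column on the x axis and spot row on the y axis. Circles mark the member spots; the red corner of array 4 holds the spots of Cpt1c and Prkag1, while arrays 1 to 3 have no such corner.

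All 10 hypothalamus markers listed, among them Agrp, Pomc, Hcrt and Sim1, had a probe above background. Each of the 10 had a lower mean after T3, against 4461 of the 9291 genes tested. A limma adjusted p of 0.05 was passed by 0 of the 10 markers, against 0.161% of the genes tested. The list median was -0.21 over the arrays and -0.06, -0.14, -0.47 and -0.03 on arrays 1 to 4. Avp and Oxt went opposite ways on different arrays, at 1.17 and 1.81 on array 1 and at -2.63 and -2.53 on array 3. Of 4 pituitary markers, Gh1 and Prl were not above background, while Tshb and Cga were, with a median of -0.55. Tshb was at -1.09, -0.80, -0.94 and 0.17 on arrays 1 to 4 and Cga at -0.58, 0.50, -1.16 and -0.52. Their signs were opposite on arrays 2 and 4. Of 3 muscle markers, Acta1 and Ckm were not above background and Mb was, at 0.01. Median log2 ratios on arrays 1 to 4 were 1.35, -3.25, 0.34 and 0.97 for red blood cell markers and 0.17, -0.38, 1.61 and -0.03 for choroid plexus markers. So these markers differed within a pair of rats. The medians were -0.22, -0.39, -0.27 and 0.13 for astrocytes and -0.22, -0.35, -0.29 and 0.15 for oligodendrocytes, each with 1 of 6 genes higher on average. Ependyma and tanycytes had -0.37, -0.21, -0.27 and 0.02 (1 of 3 higher), and neurons -0.05, -0.01, 0.10 and -0.07. By mean ratio, thalamus markers were higher for 2 of 2 measured (list median 0.14). Microglia markers were lower for 4 of 4 (-0.10) and endothelium markers higher for 2 of 3 (0.03). The part of all these markers in the member values was not tested. The known T3-induced genes Hr and Klf9 had log2 ratios of 1.18 ± 0.15 and 0.90 ± 0.27 (SD, n = 4 arrays), higher on all 4 arrays, which checks the direction of the ratios (limma adjusted p = 0.0131 and 0.0517).

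None of the 9 AMPK and malonyl-CoA genes that could be tested passed the threshold 24 hours after T3. Of the 10 genes, 9 were well above background on at least 3 arrays in the T3 or the saline channel and were tested, and 0 of 9 passed a limma adjusted p of 0.05, against 0.161% of the 9291 genes tested. At an unadjusted limma p under 0.05 there were also 0 of 9, against 9.29% of all genes. With 9 genes, counts of 0 are near these shares and say little about the members. The mean log2 ratios lay between -0.06 (Cpt1c) and 0.09 (Prkab2), 4 above and 5 below 0. Their median was -0.0027, beside 0.0044 for all genes. A ratio had the same sign on all 4 arrays for 0 of 9 members, against 17.7% of 9050 genes with a value on every array. The median SD over arrays was 0.17 for the members and 0.16 for all genes, and the median size of the mean ratio was 0.04 and 0.07.

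**Figure D2:**
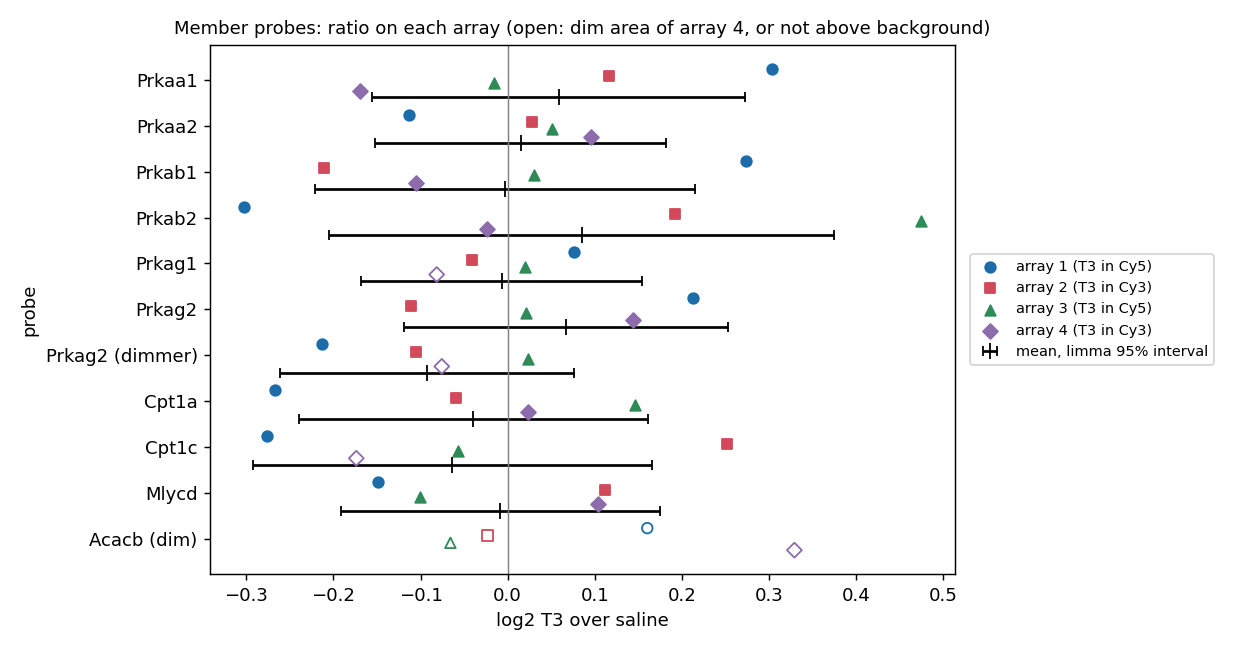
Log2 ratio of T3 over saline (x axis) for each member probe (y axis) on each of the 4 arrays, with the mean and its limma 95% interval as a black bar. Open symbols mark probes in the dim corner of array 4 and the Acacb probe, which was not above background; the interval of each tested probe includes 0, and the widest spread is that of Prkab2, from -0.30 to 0.47.

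Prkaa1 encodes the alpha 1 catalytic subunit. Its log2 brightness was 7.27, 6.92, 7.07 and 7.17 in the T3 rats of arrays 1 to 4, against 6.97, 6.80, 7.09 and 7.34 in the saline rats paired with them. The groups overlapped, and the ratios of 0.30, 0.12, -0.02 and -0.17 were above 0 on arrays 1 and 2 and below 0 on arrays 3 and 4. Their mean was 0.06 ± 0.20 (SD, n = 4 arrays; limma adjusted p = 0.95), with a limma 95% interval of -0.16 to 0.27. The spot was dim, above background on 2 arrays in the T3 channel and on 3 in the saline channel. By dye, Cy5 was above background on all 4 arrays and Cy3 only on array 1. So the ratios on arrays 2, 3 and 4 each rest on a Cy3 reading not above background.

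Prkaa2 encodes alpha 2, the other catalytic subunit, and its probe was printed 10 times on each array. The mean brightness over the spots was 7.34, 7.29, 7.25 and 7.27 log2 units in T3 rats, against 7.45, 7.27, 7.19 and 7.18 in saline rats. The ratios of -0.11, 0.03, 0.05 and 0.10 averaged 0.02 ± 0.09 (SD, n = 4 arrays; limma adjusted p = 0.99; interval -0.15 to 0.18). Only the pair on array 1 had less signal after T3. Single spots scattered more than the array means: on array 2 they ran from -0.24 to 0.42, and the SD over spots was 0.06, 0.20, 0.11 and 0.13 on arrays 1 to 4. The 2 spots in the dim corner changed little, since the mean ratio on array 4 was 0.10 with and 0.10 without them. Both means keep the dim spot at row 499, which the area rule did not count.

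Prkab1 encodes beta 1, which holds the complex together. It read 12.11, 11.99, 12.06 and 12.02 log2 units in T3 rats, against 11.83, 12.20, 12.03 and 12.12 in saline rats. The ratios split by dye: arrays 1 and 3 (T3 labelled Cy5) gave 0.27 and 0.03, whereas arrays 2 and 4 (T3 labelled Cy3) gave -0.21 and -0.10. With both orientations equal in number the mean was -0.0027 ± 0.21 (SD, n = 4 arrays; limma adjusted p = 1.00; interval -0.22 to 0.22). A dye term in the fit was 0.15 log2 units for this probe (limma unadjusted p = 0.063, adjusted p = 0.32).

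Prkab2 encodes beta 2 and had the widest spread of the members. Its log2 brightness was 7.09, 7.14, 7.12 and 7.76 in T3 rats, against 7.39, 6.95, 6.65 and 7.78 in saline rats. Both rats of array 4 were brighter than those of the other arrays, and the saline rat of array 3 was the dimmest. The ratios of -0.30, 0.19, 0.47 and -0.02 averaged 0.09 ± 0.33 (SD, n = 4 arrays; limma adjusted p = 0.95; interval -0.20 to 0.37). The value on array 3 rested on a saline spot of 83 brightness units over a background of 49 that was not well above background. The scanner software's processed signals, which carry no added offset, gave a log2 ratio of 1.80 for that same spot and a mean of 0.35.

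Prkag1 encodes gamma 1, the common nucleotide-sensing subunit. On arrays 1 to 3 its log2 brightness was 11.08, 11.04 and 11.26 in T3 rats, against 11.00, 11.09 and 11.24 in saline rats. On array 4, in the dim corner, it was 8.92 in the T3 rat and 9.0 in the saline rat, still well above background. The ratios of 0.08, -0.04, 0.02 and -0.08 averaged -0.0066 ± 0.07 (SD, n = 4 arrays; limma adjusted p = 1.00), with an interval of -0.17 to 0.15. Without the corner the mean was 0.02 over 3 arrays (interval -0.18 to 0.22). Their SD was the smallest of the 9 members tested.

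Prkag2 encodes gamma 2, and its 2 probes gave means of opposite sign. The bright probe read 11.49, 11.44, 11.15 and 11.57 log2 units in T3 rats, against 11.27, 11.55, 11.13 and 11.42 in saline rats. Its ratios of 0.21, -0.11, 0.02 and 0.14 were higher on 3 of 4 arrays and averaged 0.07 ± 0.14 (SD, n = 4 arrays; limma adjusted p = 0.92; interval -0.12 to 0.25). The dimmer probe had ratios of -0.21, -0.11, 0.02 and -0.08, lower on 3 of 4 arrays, with a mean of -0.09 ± 0.10 (SD, n = 4 arrays; limma adjusted p = 0.85). Its brightness was uneven: 7.23, 8.87, 8.83 and 6.56 in T3 rats, against 7.44, 8.97, 8.81 and 6.63 in saline rats. On array 4, in the dim corner, neither dye of this probe was above background, so its ratio there carries no measurable signal. On the arrays with signal it was lower on arrays 1 and 2 and higher on array 3. Neither probe passed, and the sign of the mean for Prkag2 depended on the probe.

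**Figure D3:**
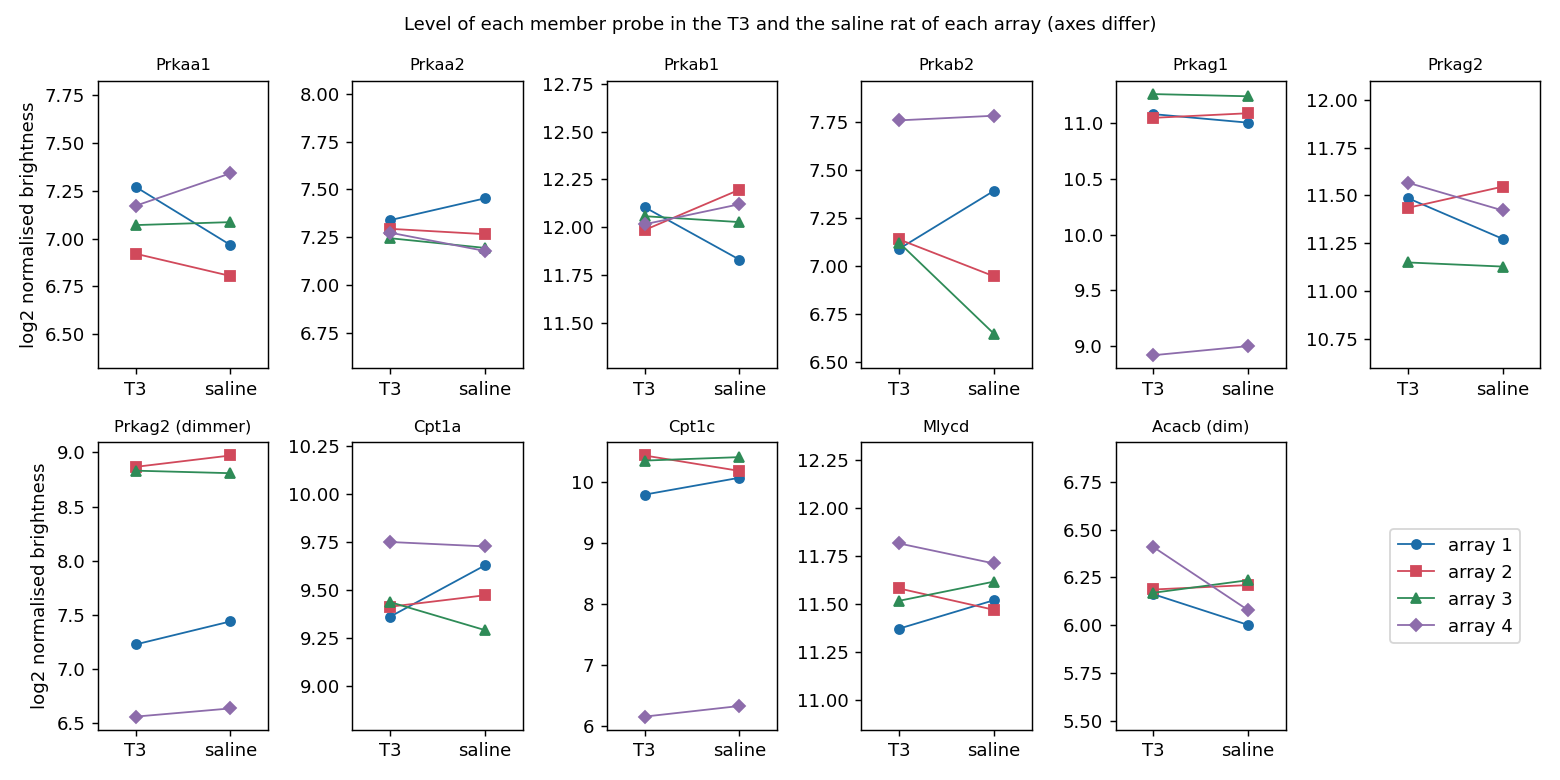
Log2 normalised brightness (y axis, which differs between panels) of each member probe in the T3 rat and the saline rat of each array, with a line joining the rats of a pair. The T3 and saline values of each probe overlap; for Cpt1c and Prkag1 the pair of array 4 lies far below the other pairs in both treatments.

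Acacb encodes acetyl-CoA carboxylase 2, which makes malonyl-CoA at the mitochondrial surface. Its probe was above background on 0 of 4 arrays in either channel and was not tested. The spots read 120, 70, 116 and 76 brightness units in T3 rats, against 69, 120, 73 and 123 in saline rats, with the Cy5 spot the higher of each pair. Backgrounds beside them were 46 to 108 units. Acaca, which encodes the cytosolic carboxylase of the same reaction, was measured and averaged 0.03 ± 0.26 on the log2 scale (SD, n = 4 arrays; limma adjusted p = 0.99). Its ratios of 0.29, -0.22, 0.20 and -0.16 split by dye, positive with T3 in Cy5 and negative with T3 in Cy3. The probe was above background on 4 arrays in the T3 channel and 3 in the saline channel.

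Mlycd encodes malonyl-CoA decarboxylase, which degrades what the carboxylases make. It read 11.37, 11.58, 11.52 and 11.82 log2 units in T3 rats, against 11.52, 11.47, 11.62 and 11.71 in saline rats. The ratios of -0.15, 0.11, -0.10 and 0.10 again split by dye, negative with T3 in Cy5 and positive with T3 in Cy3. Their mean was -0.0081 ± 0.14 (SD, n = 4 arrays; limma adjusted p = 1.00), and its interval of -0.19 to 0.18 corresponds to 0.88-fold to 1.13-fold. The dye term was -0.12 (limma unadjusted p = 0.084, adjusted p = 0.35).

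Cpt1a encodes carnitine palmitoyltransferase 1A, the malonyl-CoA-sensitive enzyme of the outer mitochondrial membrane found in liver and many other tissues. Its probe was printed 10 times on each array, and 1 spot on array 4 was left out as an outlier. That spot, at row 471 and column 72 near the dim corner, read 225 units in Cy5 and 122 in Cy3. On the other arrays it read 983 to 1077 in Cy5 and 353.5 to 609 in Cy3. The mean brightness was 9.36, 9.41, 9.44 and 9.75 log2 units in T3 rats, against 9.63, 9.47, 9.29 and 9.73 in saline rats. The ratios were -0.27, -0.06, 0.15 and 0.02, lower after T3 on arrays 1 and 2 and higher on arrays 3 and 4. They averaged -0.04 ± 0.17 (SD, n = 4 arrays; limma adjusted p = 0.97; interval -0.24 to 0.16, or 0.85-fold to 1.12-fold). Repeated spots of Cpt1a lay close together within an array, with an SD of 0.06, 0.06, 0.07 and 0.08 on arrays 1 to 4. On array 1 they ran from -0.36 to -0.16 and on array 3 from -0.02 to 0.25, so the spots of these arrays did not overlap. Spots of 1 array share their RNA, so this closeness describes the measurement and not the spread between rats. T3 gave no shared direction over the 4 pairs.

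**Figure D4:**
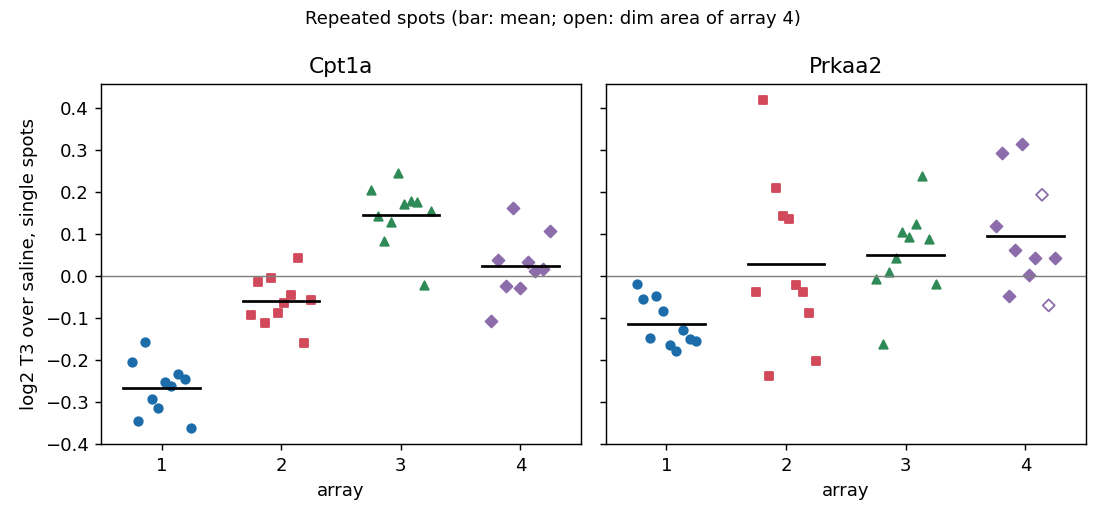
Log2 ratio of T3 over saline for every repeated spot of Cpt1a and Prkaa2 (y axis) by array (x axis), with the array mean as a bar. The Cpt1a spots of array 1 all lie below 0, and Prkaa2 spots scatter most on array 2; open symbols are Prkaa2 spots in the dim corner.

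Cpt1c encodes the neuronal family member, which sits in the endoplasmic reticulum, binds malonyl-CoA and has little transferase activity. On arrays 1 to 3 its log2 brightness was 9.79, 10.43 and 10.35 in T3 rats, against 10.06, 10.18 and 10.40 in saline rats. On array 4 it was 6.15 in the T3 rat and 6.32 in the saline rat, and neither was above background. Its spot there read 70 units in Cy3 and 135 in Cy5. The ratios on arrays 1 to 3 were -0.28, 0.25 and -0.06, and the fitted value of -0.17 on array 4 carries no measurable signal. With array 4 the mean was -0.06 ± 0.23 (SD, n = 4 arrays; limma adjusted p = 0.95; interval -0.29 to 0.17). Without the corner it was -0.03 ± 0.27 over 3 arrays (limma adjusted p = 0.99; interval -0.31 to 0.26). By the scanner software's processed signals the mean was 0.17 with array 4, where the ratio was 0.88, and -0.06 without it.

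Within each family, the responses of paralogs were compared array by array in 4 pairs. Prkaa1 minus Prkaa2 was 0.04 ± 0.29 on the log2 ratio scale, and Prkab1 minus Prkab2 was -0.09 ± 0.47 (SD, n = 4 arrays; exact sign-flip permutation p = 0.75 and 0.875, 2-sided). Prkag1 minus Prkag2 was -0.07 ± 0.13 and Cpt1a minus Cpt1c was 0.02 ± 0.24 (SD, n = 4 arrays; exact sign-flip permutation p = 0.375 and 0.875). All 4 had a Benjamini-Hochberg adjusted exact p of 0.875. With 4 arrays there are 16 sign patterns and the smallest p is 2 of 16, so this test cannot reach 0.05. These differences were smaller than their spread over arrays. The last 2 pairs use array 4 values from the dim corner, where Cpt1c had no signal above background. Without it, over 3 arrays, Prkag1 minus Prkag2 was -0.02 and Cpt1a minus Cpt1c was -0.03, with the sign turned.

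The kinases and phosphatases that act on AMPK did not move past the threshold either. Of 12 listed, 10 were measured, 4 with a higher and 6 with a lower mean, and 0 passed (median -0.0083). Over all 9291 genes tested 0.161% passed, so a count of 0 in this list or the next ones is near that share. It says little about these genes. Stk11, the LKB1 kinase that activates AMPK, had the smallest p, with ratios of -0.38, 0.06, -0.34 and -0.03 (mean -0.17 ± 0.22, SD, n = 4 arrays; limma adjusted p = 0.73). Ppm1e, a phosphatase that removes the activating phosphate, was at -0.16 ± 0.42 and Stradb, an LKB1 partner, at 0.05 ± 0.12 (limma adjusted p = 0.88 and 0.95). Among 13 kinases related to AMPK 4 were measured and 0 passed, with Mark1 at 0.19 ± 0.21, Snrk at 0.07 ± 0.14 and Mark3 at 0.07 ± 0.21 (limma adjusted p = 0.67, 0.91 and 0.94). Among 17 substrates and effectors 10 were measured and 0 passed. Tsc2, an inhibitor of mTOR signalling that AMPK activates, was lower on all 4 arrays by a small margin (-0.11 ± 0.05; limma adjusted p = 0.79). Flcn, a regulator of AMPK and mTOR signalling, was at 0.10 ± 0.12, and Pfkfb2, which makes a stimulator of glycolysis, at 0.10 ± 0.17 (limma adjusted p = 0.84 and 0.86). Prkag3, the third gamma subunit, known from skeletal muscle, was above background on 2 arrays in the T3 channel and 3 in the saline channel and averaged -0.01 ± 0.14 (limma adjusted p = 0.99).

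Genes that supply and use malonyl-CoA went both ways, 5 of 10 measured with a higher mean and 0 past the threshold, against 0.161% of all genes. An unadjusted limma p under 0.05 was reached by 2 of 10 (20%), against 9.29% of all genes. Thrsp, a lipogenic protein known to be induced by thyroid hormone in liver, had ratios of 0.46, 0.10, 0.13 and 0.20 (mean 0.22 ± 0.16, SD, n = 4 arrays; limma unadjusted p = 0.030, adjusted p = 0.54). Its probe also lies in the dim corner of array 4. Elovl6, a fatty acid elongase that uses malonyl-CoA, was at 0.19 ± 0.13 and higher on all 4 arrays (limma unadjusted p = 0.045, adjusted p = 0.60). Mid1ip1, a partner of Thrsp, was at -0.12 ± 0.20 (limma adjusted p = 0.84).

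Downstream of malonyl-CoA, the carnitine shuttle and mitochondrial fatty acid oxidation had all 17 listed genes measured, 10 higher and 7 lower. Past the threshold were 0, against 0.161% of all genes. An unadjusted limma p under 0.05 was reached by 5 of 17 (29.4%), against 9.29% of all genes. The median ratio was 0.02. Cpt1b, the muscle-type palmitoyltransferase, had ratios of 0.20, 0.27, 0.19 and 0.23, the smallest SD of the 4 with a value on every array (mean 0.22 ± 0.04, SD, n = 4 arrays; limma unadjusted p = 0.011, adjusted p = 0.38). A second Cpt1b probe was above background on 0 arrays. Acadvl, the very long chain acyl-CoA dehydrogenase, was at 0.17, 0.19, 0.23 and 0.36 (mean 0.24 ± 0.09; limma adjusted p = 0.39). Crot, the peroxisomal octanoyltransferase, was at 0.08, 0.13, 0.77 and 0.56 (mean 0.39 ± 0.33; limma adjusted p = 0.44). Hadh and Acadl, chosen after their values were seen as the rest of the 5, went opposite ways. Hadh, a hydroxyacyl-CoA dehydrogenase, was at 0.27 over 3 arrays and Acadl, the long chain acyl-CoA dehydrogenase, at -0.18 (limma adjusted p = 0.47 and 0.58). Whether Cpt1b responded differently from Cpt1a or Cpt1c was not tested.

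**Figure D5:**
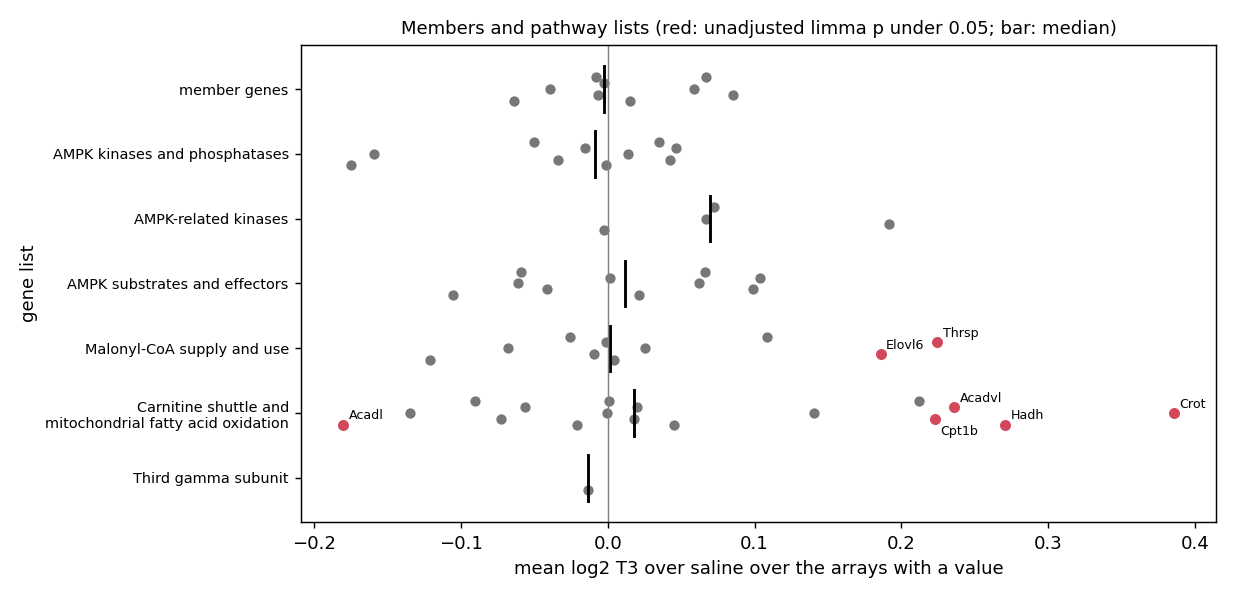
Mean log2 ratio of T3 over saline (x axis) for each measured gene of the member group and the pathway lists (y axis), with the list median as a bar and genes with an unadjusted limma p under 0.05 in red and named. The 9 members lie between -0.06 and 0.09, with 0 red points, and 5 of 17 genes of the carnitine shuttle and oxidation list are red, none of which passed after adjustment.

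By ratio pattern over the 4 arrays, Prkag2, the member with the smallest p, lay closest to Srsf3, Tmed9 and Prpf4b among 9049 genes (Euclidean distance 0.028, 0.037 and 0.051 log2 units). Cpt1c lay closest to Gpr101, Rassf6 and Alcam (0.024, 0.094 and 0.096), a likeness that includes its value without signal on array 4. With 4 arrays and this many genes, such distances describe these values only.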

How the data were processed

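2-colour Agilent scanner files of 4 arrays were used. Their deposited intensity values are median pixel brightness of spot and background per dye, not normalized, which per the file headers came from Feature Extraction 10.7.3.1. The deposited log10 ratio of Cy5 over Cy3 was not used. The authors' deposited table of 41105 rows, taken as log2 ratios of T3 over saline with no sign turned, came, per the submitters' processing notes, from limma 3.18.9, and the base of its log, its direction and its steps are not given in the sources used here.

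Background was corrected with normexp (offset 50, which pulls ratios of dim spots toward 0) and each array normalized by loess in limma 3.58.1 under R 4.3.3, without control spots and spots flagged as outliers. Spots of a probe were averaged, and ratios turned to T3 over saline. Levels per rat are log2 brightness after loess and Aquantile scaling, and are not compared between probes. A probe was kept when well above background on at least 3 arrays in either treatment (23141 of 41012). Names came from RefSeq accessions (16964 probes matched 1 symbol), and a gene took its brightest kept probe. The limma fit (2-sided, 3 residual and 4.36 prior degrees of freedom) was adjusted by Benjamini-Hochberg over all kept probes and was tested on simulated data. The number of arrays limits the precision.

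The dim corner was found as spots whose median brightness within 10 rows and columns was over 1 log2 unit below the other arrays. The members and the pathway lists were chosen with earlier results of these data known. Named genes were all members, up to 3 of each list by smallest p, Hr and Klf9, and the 3 nearest patterns of 2 members. Alternatives changed background correction, normalization, filters, dye term, array weights, moderation, probe choice and replicates.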

Additional observations from a re-analysis of the deposited data

Results flagged for a closer look

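In 5 of 29 checks of a ratio or level of a member probe over the 4 arrays, 1 array lay far from the other 3. Chance gives about 1 in 20 for a single check. The checks are not independent, since the T3 and saline levels of an array share spots and the ratio comes from both. The count therefore cannot be set against that rate. All 5 flagged values are levels on array 4. Cpt1c had a log2 brightness of 6.15 in the T3 rat, against 9.79 to 10.43 in the other T3 rats, and of 6.32 in the saline rat, against 10.06 to 10.40 in the other saline rats. Prkag1 was at 8.92 in the T3 rat, against 11.04 to 11.26, and at 9.0 in the saline rat, against 11.00 to 11.24. These 4 levels come from spots in the dim corner of that array. Prkab2, whose spot lies outside the corner, was higher in the T3 rat of array 4, at 7.76 against 7.09 to 7.14 in the other T3 rats. Its level in the saline rat of that array was also high, at 7.78 against 6.65 to 7.39, though not flagged. The ratio on array 4 was -0.02. None of the ratios of T3 over saline stood apart in this way.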

How the results depend on the processing

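No member gene was called under any alternative run, while the count of 23 probes called over the array was less stable. It was 0 with Agilent processed signals, median centring or eBayes with trend and robust (1947, 127 and 1148 probes at an unadjusted limma p under 0.05), 10 with the authors' deposited table, 15 with a dye term, 36 when a probe had to be above background on all 4 arrays and 66 with no filter. Leaving out 1 array gave 0 to 68 calls: 0 without replicate 1, 3 or 4 (1395, 1376 and 1578 at an unadjusted p under 0.05) and 68 without replicate 2. The causes were not tested. Of 142 log2 ratios of member genes under the alternatives, 51 equal the reported value by construction. Of the 91 that could move, 68 kept their direction and 23 turned it, and none was called. Prkag1 was 0.0075 with no background subtraction, 0.0042 with processed signals, 0.0065 with median centring, 0.087 in the authors' deposited table and 0.018 without the dim corner. Cpt1c was 0.17 with processed signals, 0.20 with median centring and 0.092 in the authors' deposited table. Prkab1 was 0.0049 with processed signals, and Cpt1a and Mlycd were 0.14 and 0.0020 in the authors' deposited table. Some values moved without turning: Prkaa1, reported at 0.059, was 0.20 with processed signals and 0.17 in the authors' deposited table. Prkaa2, reported at 0.015, was 0.12 and 0.22 there. Prkag2 was -0.013 as the mean of its probes. Leaving out each array in turn gave -0.023 to 0.13 for Prkaa1, -0.012 to 0.058 for Prkaa2, -0.095 to 0.067 for Prkab1, -0.045 to 0.21 for Prkab2, -0.034 to 0.018 for Prkag1, -0.10 to 0.036 for Cpt1a, -0.17 to 0.0073 for Cpt1c and -0.048 to 0.039 for Mlycd, while Prkag2 stayed above 0 (0.019 to 0.13). Among paralog differences, Cpt1a minus Cpt1c was -0.23 with processed signals, -0.28 with median centring and -0.034 without the dim corner, which was chosen after seeing the data. Prkaa1 minus Prkaa2 was -0.043 in the authors' deposited table, and Prkag1 minus Prkag2 was 0.0061 over probe means. Without 1 array they ran from -0.036 to 0.14 (Cpt1a minus Cpt1c), -0.081 to 0.15 (Prkaa1 minus Prkaa2) and -0.31 to 0.031 (Prkab1 minus Prkab2). The fit is itself paired, since each array ratio is 1 pair of rats.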

Other observations

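The authors' deposited table did not track the scanner files closely. Over the kept probes, the Pearson correlation of its columns with the ratios of their own arrays was 0.43, 0.43, 0.19 and 0.28 for arrays 1 to 4. Array 3 correlated more with column 1 (0.26) than with its own column, and array 4 more with column 2 (0.31). Columns 3 and 4 correlated at -0.48 with each other over all probes. Hr was at 0.80, 1.08, 0.72 and 0.98 in the authors' deposited table, positive in every column. In columns 3 and 4 its values were 0.87 and -0.29 for Prkaa2, 0.75 and -0.37 for Cpt1c and -0.70 and 0.39 for Prkab1. Column 4 is labelled as array 4, on which the scanner file had no signal above background for Cpt1c. These values are as deposited, with no sign turned, and their direction is not given in the sources used here.

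The dim corner of array 4 reached beyond the members: it held spots of 3380 probes, of which 1809 were kept for testing.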
